A study of Mus musculus with 16 samples.

Results

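The genes described here are the 3 alpha-type globin genes Hba-x, Hba-a1 and Hba-a2 and the erythroid anion exchanger gene Slc4a1, whose protein is known as band 3. They were chosen by symbol, as 4 of the 5921 rows of the expression table analysed here. The 16 RNA-seq libraries come from heart ventricles of E11.5 mouse embryos and form 4 groups of 4 biological replicates. In 2 mouse lines the gene for the transcription factor ATF4 was removed conditionally with Xmlc2-Cre, a recombinase active in cardiomyocytes. In the exon 2-3 line (batch 1) loxP sites flank exons 2 and 3 of Atf4, and in the exon 2 line (batch 2) they flank exon 2 alone. Each line had a control group and a conditional knockout (cKO) group, and no embryo received a drug. The genotype label gives wild-type C57BL/6 for all 16 samples, cKO samples included, so the alleles of the controls are not stated. The row of Atf4 itself was not analysed here, so the knockout was not checked in these libraries. Because each line was its own batch, these cannot be told apart, and cKO libraries were compared with the controls of their line. The labels also differ on how RNA was prepared: one text names mRNA libraries, another ribosomal RNA depletion, and the extraction text names cultured cortical neurons. The cardiomyocyte markers fixed for a check of the tissue label (11 genes, among them Tnnt2, Tnni1 and Myl4) summed to between 10981 and 15895 TPM in every library. TPM is a unit that divides reads by transcript length and scales each library to the same total.

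Hemoglobin carries oxygen in red blood cells as a tetramer of paired alpha-type and beta-type chains around heme. In the mouse, Hba-x encodes the embryonic alpha-type chain, zeta, which is typical of the primitive red cells that arise in the yolk sac, while Hba-a1 and Hba-a2 encode the alpha chain used from the embryo to the adult. Slc4a1 encodes the chloride-bicarbonate exchanger of the red cell membrane, which also anchors the membrane skeleton. At this age primitive red cells circulate through the heart, so a dissected ventricle holds blood as well as heart muscle.

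On the GRCm38.p6 build, whose RefSeq gene coordinates match the table, the alpha-type genes lie on the + strand of chromosome 11 within one cluster. Hba-x spans chr11:32276600-32278116, Hba-a1 chr11:32283672-32284486 and Hba-a2 chr11:32296492-32297310. Slc4a1 lies on the - strand of the same chromosome at chr11:102348820-102365281. No other row of the table overlaps any of the 4 genes. In the GENCODE M21 transcripts each alpha-type gene has 3 exons and 426 coding bases.

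How far the 3 alpha-type genes can be measured apart depends on their sequences, so the first 120 coding bases are shown, with capitals in Hba-x where it differs from Hba-a1 at the same position. The first 120 coding bases of Hba-a2 are the same as those of Hba-a1.
Hba-a1: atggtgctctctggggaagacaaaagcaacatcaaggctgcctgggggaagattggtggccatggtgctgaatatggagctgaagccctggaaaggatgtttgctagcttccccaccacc
Hba-x: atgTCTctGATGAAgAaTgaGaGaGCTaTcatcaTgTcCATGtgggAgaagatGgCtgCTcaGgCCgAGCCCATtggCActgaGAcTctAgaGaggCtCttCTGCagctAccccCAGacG

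Over these bases Hba-x differed from Hba-a1 at 56 positions. Over the whole coding sequence Hba-x matched Hba-a1 at 267 of 422 aligned bases (63.3%), with no identical run longer than 18 bases. Hba-a1 and Hba-a2 matched at 425 of 426 coding bases, the difference being C381T, counted from the first coding base with the base of Hba-a1 first. Their longest identical coding run was 380 bases. Reads from most of these 2 transcripts could therefore belong to either gene, and the split of reads between Hba-a1 and Hba-a2 is uncertain. Their GENCODE transcripts are 699 and 554 bases long, while their RefSeq gene spans are 815 and 819 bases. Which transcript lengths entered the TPM values is not known. If those lengths differed, that split would also enter their summed TPM and each ratio that uses it.

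The 250 bases before the RefSeq start of Hba-x and Hba-a1 are shown because the 3 genes varied together between libraries. Capitals mark matches on either strand to short motifs known from globin promoters. The letters searched were AGATAA or TGATAA for GATA factors. The boxes searched were CCAAT for NF-Y, CACCC for KLF factors and TATAA for the TATA-binding protein. The windows are chr11:32276350-32276599 for Hba-x and chr11:32283422-32283671 for Hba-a1, both on the + strand.
Hba-x: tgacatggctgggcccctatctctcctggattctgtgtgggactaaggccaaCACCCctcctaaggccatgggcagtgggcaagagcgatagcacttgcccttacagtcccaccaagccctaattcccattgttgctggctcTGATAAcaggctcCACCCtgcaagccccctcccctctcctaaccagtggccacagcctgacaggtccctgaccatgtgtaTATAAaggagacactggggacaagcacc
Hba-a1: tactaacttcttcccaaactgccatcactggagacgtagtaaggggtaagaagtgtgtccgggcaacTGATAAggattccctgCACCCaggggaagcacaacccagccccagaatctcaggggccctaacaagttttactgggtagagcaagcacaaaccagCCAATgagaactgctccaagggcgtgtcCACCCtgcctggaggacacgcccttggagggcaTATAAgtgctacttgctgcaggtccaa

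Both windows held 1 GATA match, 2 CACCC matches and 1 TATA match, and the TATA letters began 28 bases before the start of Hba-x and 27 before that of Hba-a1. Hba-a1 also held 1 CCAAT match, 88 bases before its start, and Hba-x held none. The window of Hba-a2 (chr11:32296242-32296491) equalled that of Hba-a1 over all 247 bases that could be aligned and held the same 5 matches. Among 32851 promoter windows of the same length, 16.6% held the GATA letters, 33.8% CCAAT, 52.0% CACCC and 22.8% TATAA. The letters TGATGNAA of the composite element that ATF4 is known to bind were in none of the 3 windows and in 3.45% of all windows. A match to such letters describes the sequence and does not show that a factor was bound there.

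Hba-x, the embryonic gene, had the highest mean of the 4 over all libraries, at 1449 TPM, and rank 12 among the 5921 rows by mean TPM. In the exon 2 controls Hba-a1 averaged more, at 1144 against 1096 TPM. The level of Hba-x in the exon 2-3 controls was 1412, 1789, 1422 and 1353 TPM in replicates 1 to 4. In the exon 2-3 cKO it was 701, 2435, 666 and 5163 TPM. The exon 2 controls held 903, 830, 1487 and 1166 TPM, and the exon 2 cKO 896, 955, 757 and 1248 TPM. Replicates 1 and 3 of the exon 2-3 cKO lay below all the controls of their line, and replicates 2 and 4 lay above all of them. The cKO and control groups of each line overlapped in range.

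Hba-a1 ranked 18 by mean TPM, with 1023, 1517, 1221 and 891 TPM in the exon 2-3 controls and 458, 1899, 462 and 3340 TPM in the exon 2-3 cKO. It stood in the exon 2 line at 817, 734, 1834 and 1189 TPM in the controls and 794, 860, 723 and 1427 TPM in the cKO. The order of the exon 2-3 cKO replicates relative to their controls was that of Hba-x, with replicates 1 and 3 below and replicates 2 and 4 above. Hba-a2, the near-identical copy, ranked 23 and repeated this pattern at a lower level: 828, 1223, 1008 and 736 TPM in the exon 2-3 controls and 375, 1550, 375 and 2733 TPM in the cKO. Its exon 2 controls held 596, 550, 1354 and 909 TPM and its exon 2 cKO 623, 624, 523 and 1040 TPM. The reported level of Hba-a1 exceeded that of Hba-a2 in 16 of 16 libraries.

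Slc4a1, the membrane exchanger, ranked 1128 with a mean of 20.6 TPM. Its level was 18.3, 24.8, 17.4 and 15.3 TPM in the exon 2-3 controls and 6.65, 31.1, 8.30 and 57.1 TPM in the exon 2-3 cKO. The exon 2 controls held 15.2, 11.9, 30.8 and 20.9 TPM, and the exon 2 cKO 15.8, 17.5, 15.3 and 22.6 TPM. This membrane gene too was below all exon 2-3 controls in cKO replicates 1 and 3 and above all of them in replicates 2 and 4.

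**Figure D1:**
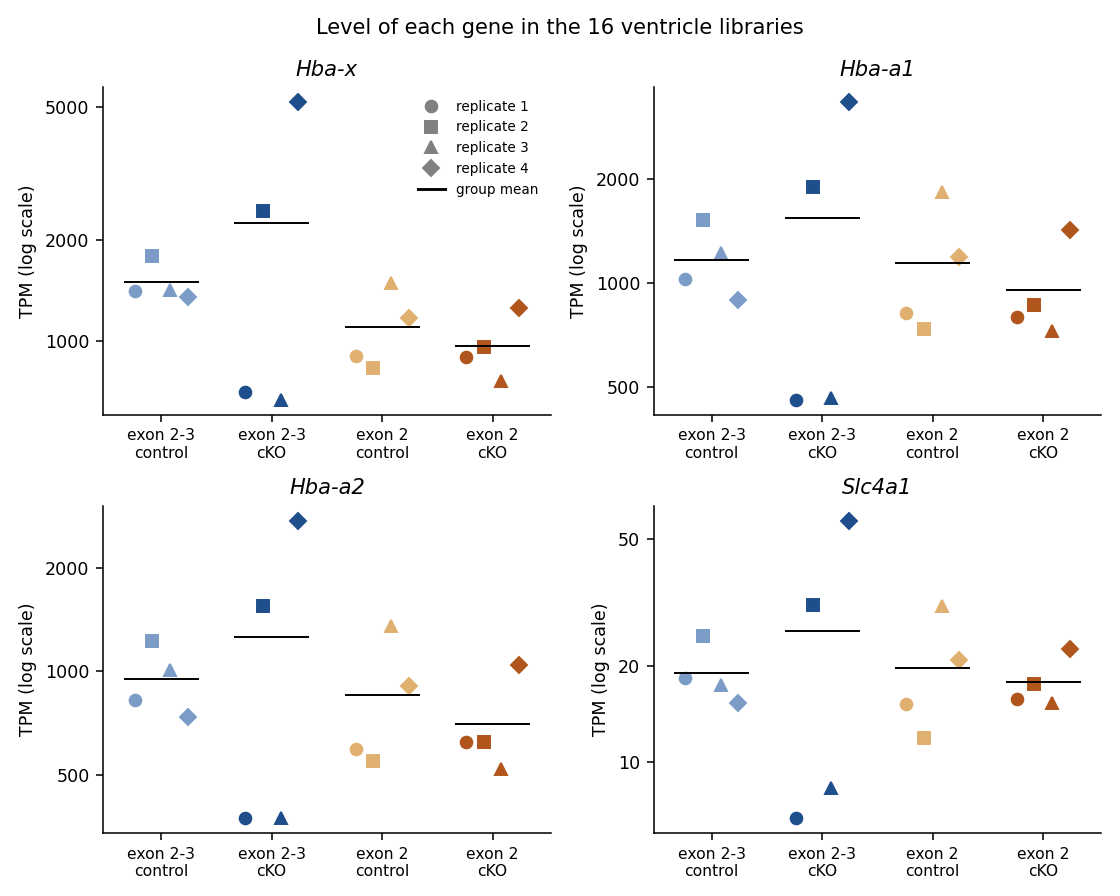
Level in TPM (log scale) of Hba-x, Hba-a1, Hba-a2 and Slc4a1 in each of the 16 libraries, by group; the marker shape gives the replicate number and the line the group mean. In every panel replicates 1 and 3 of the exon 2-3 cKO lie below, and replicates 2 and 4 above, all 4 exon 2-3 controls.

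The spread between replicates was the main feature of these genes in the exon 2-3 cKO. The highest of its 4 libraries exceeded the lowest 7.75-fold for Hba-x, 7.30-fold for Hba-a1, 7.28-fold for Hba-a2 and 8.59-fold for Slc4a1. In the controls of that line the same ratio ran from 1.32 for Hba-x to 1.70 for Hba-a1, and in the 2 groups of the exon 2 line from 1.47 to 2.59. By residual SD of the log2 level within groups, among 2620 genes with a mean of at least 1 TPM, the 4 genes ranked 11 to 15 in the exon 2-3 line and 65 to 206 in the exon 2 line. The median residual SD was 1.04 over the 4 genes against 0.12 over all genes in the exon 2-3 line, and 0.48 against 0.12 in the exon 2 line. The 3 alpha-type genes together took up 0.150% of all transcripts by TPM in the lowest library and 1.12% in the highest, both of them in the exon 2-3 cKO. In bulk tissue, fewer red cells and less RNA per cell cannot be told apart.

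Summed markers of other cell types had narrower ranges among the exon 2-3 cKO libraries. Their summed levels lay between 14125 and 15206 TPM for the 11 cardiomyocyte markers, between 165 and 186 TPM for 8 endothelial markers and between 76.2 and 88.5 TPM for 6 leukocyte markers. Of the cardiomyocyte list, 9 of the 11 markers had a log2 difference below 0 between exon 2-3 cKO and control. The exon 2 line also had 9 of 11 below 0. In the exon 2-3 line 1 of the 11, the transcription factor gene Hand1, passed the test, as lower. Of all genes, 6.72% passed in either direction. Above 0 were 5 of 6 tested endothelial, 2 of 3 tested leukocyte and 3 of 3 tested megakaryocyte markers, and none of these passed. The exon 2-3 controls summed to between 138 and 174 TPM for the endothelial and between 86.8 and 89.2 TPM for the leukocyte markers. The sum over all 6 leukocyte markers thus reached lower values in the cKO, although 2 of the 3 tested were above 0. For 4 megakaryocyte markers the range was 22.2 to 40.2 TPM in the exon 2-3 cKO and 14.3 to 47.8 TPM in its controls. The highest of the cKO libraries was replicate 1, where the globins were low. Selp was at 0 in at least 1 library. The 5 epicardial and mesenchymal markers summed to between 395 and 432 TPM in this cKO group against 256 to 291 TPM in its controls. Of these, 4 (Col3a1, Tcf21, Dcn and Col1a1) passed the test as higher, beside 4.16% of all genes. The part of these other cell types in the globin levels was not tested.

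The first comparison asks whether removing Atf4 from cardiomyocytes with the exon 2-3 allele changed the level of these red cell genes in the ventricle. None of the 4 passed limma's moderated test of log2(TPM + 1) at an adjusted p of 0.05, a threshold that 176 of the 2620 genes tested (6.72%) passed. Mean levels in the cKO were 2241 ± 2116 TPM (SD, n = 4) for Hba-x and 25.8 ± 23.7 TPM for Slc4a1, against 1494 ± 199 and 19.0 ± 4.11 TPM in the controls. Hba-a1 averaged 1540 ± 1379 TPM in the cKO and 1163 ± 272 TPM in the controls, and Hba-a2 1258 ± 1128 and 949 ± 215 TPM. On the log2(TPM + 1) scale, cKO minus control was 0.07 for Hba-x (SE 0.57, 95% confidence interval -1.20 to 1.34, limma adjusted p = 0.972). It was -0.08 for both Hba-a1 and Hba-a2 (SE 0.58, interval -1.38 to 1.22, limma adjusted p = 0.965). For Slc4a1 it was -0.04 (SE 0.56, interval -1.30 to 1.21, limma adjusted p = 0.982). With 2 cKO libraries on each side of the controls, the arithmetic means were higher in the cKO while the log2 differences were near 0. The intervals include changes of more than 1 log2 unit in either direction, so a change of that size was not excluded here. Without cKO replicate 4 the difference of Hba-x was -0.51, and without cKO replicate 3 it was 0.48. For the other genes the lowest value came without cKO replicate 4 and the highest without cKO replicate 1, at -0.63 and 0.33 for Hba-a1, -0.63 and 0.33 for Hba-a2, and -0.58 and 0.40 for Slc4a1. No gene of the 4 had groups that did not overlap, as 14.5% of all genes did in this comparison.

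The exon 2 line poses the same question with the smaller deletion. None of the 4 genes passed the test there either, beside 2 of 2620 genes (0.0763%). Hba-x averaged 1096 ± 298 TPM in the controls and 964 ± 207 TPM in the cKO (SD, n = 4). Hba-a1 averaged 1144 ± 501 and 951 ± 322 TPM, Hba-a2 853 ± 371 and 702 ± 230 TPM, and Slc4a1 19.7 ± 8.30 and 17.8 ± 3.32 TPM. All 4 differences between these means were smaller than the SD of either group. The log2 differences were -0.17 for Hba-x (interval -0.59 to 0.25), -0.22 for Hba-a1 (-0.85 to 0.40), -0.23 for Hba-a2 (-0.86 to 0.39) and -0.07 for Slc4a1 (-0.59 to 0.46). Each had a limma adjusted p of 0.999. Without control replicate 3, the control with the most globin RNA, the difference of Slc4a1 was 0.17, of Hba-a1 0.036 and of Hba-a2 0.021. The groups overlapped for all 4 genes, and 1.83% of all genes had groups that did not.

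**Figure D2:**
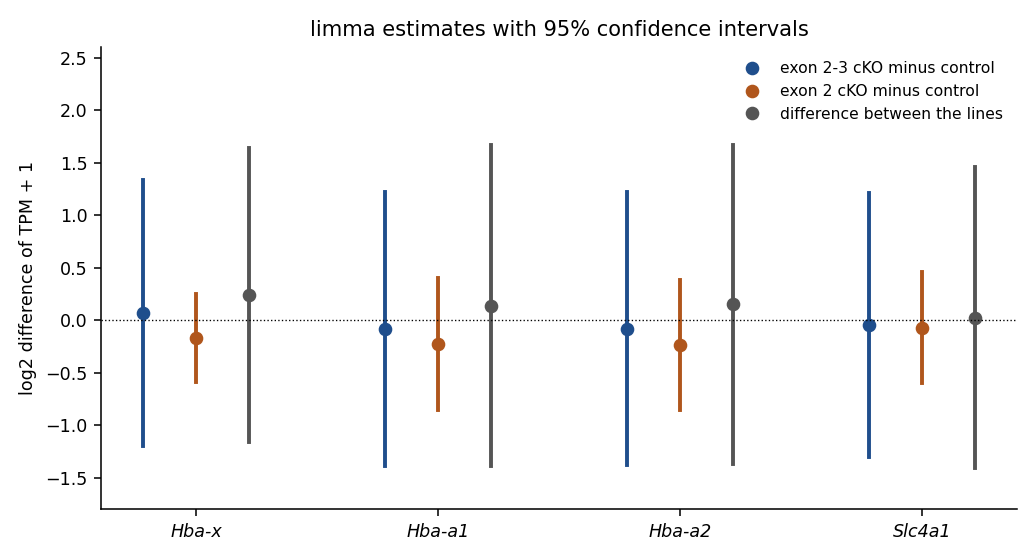
Estimated log2 differences of TPM + 1 for the 4 genes: cKO minus control for the exon 2-3 line and for the exon 2 line, and the difference between these 2 effects; bars are 95% confidence intervals from limma. Every interval includes 0, and those of the exon 2-3 line span more than 1 log2 unit on either side.

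The difference of the cKO effect between the lines, tested as an interaction over all 16 libraries, passed for none of the 4 genes and for 62 of 2620 genes (2.37%). It was 0.24 for Hba-x (SE 0.66, limma adjusted p = 0.923), 0.14 for Hba-a1 (SE 0.72, adjusted p = 0.969), 0.15 for Hba-a2 (SE 0.72, adjusted p = 0.963) and 0.03 for Slc4a1 (SE 0.68, adjusted p = 0.992). The test between the control groups of the 2 lines passed for 1377 of 2620 genes (52.6%) and for none of these 4, in a comparison where line and batch cannot be told apart. Hba-x was the furthest apart, with 1494 TPM in the exon 2-3 controls and 1096 TPM in the exon 2 controls, a log2 difference of 0.48 (interval -0.52 to 1.47, limma adjusted p = 0.418). The differences were 0.09 for Hba-a1 (adjusted p = 0.889), 0.22 for Hba-a2 (adjusted p = 0.733) and 0.01 for Slc4a1 (adjusted p = 0.988). These tests took their spread from all 4 groups, including the exon 2-3 cKO, which is not compared here. The SD of log2 Hba-x was 1.44 in that cKO, 0.182 in the exon 2-3 controls and 0.381 in the exon 2 controls. Without cKO replicate 4 the control difference of Hba-x stayed at 0.48 and its limma adjusted p was 0.227. The lack of calls therefore does not show that the controls were alike in these genes. Ordered by mean Hba-x, highest first, the groups ran from the exon 2-3 cKO through the exon 2-3 controls and the exon 2 controls to the exon 2 cKO. The first place of the exon 2-3 cKO rested on replicate 4, at 5163 TPM. Without that library the log2 difference of Hba-x from the controls of its line was -0.51. The ranges of neighbouring groups in that order overlapped. The 2 control groups, next to each other in it, differed in mean by more than the SD of either. The ranges of the control groups overlapped for each of the 4 genes, whereas 45.5% of all genes had control groups that did not overlap.

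The balance of embryonic and later alpha-type globin RNA varied far less than the levels. Hba-x divided by the sum of Hba-a1 and Hba-a2 was 0.763, 0.653, 0.638 and 0.831 in the exon 2-3 controls and 0.842, 0.706, 0.795 and 0.850 in the exon 2-3 cKO. It was 0.639, 0.646, 0.466 and 0.555 in the exon 2 controls and 0.632, 0.644, 0.608 and 0.506 in the exon 2 cKO. The cKO and control groups overlapped in both lines. The exon 2-3 line had a mean ratio of 0.798 ± 0.0662 in the cKO against 0.721 ± 0.0923 in the controls (SD, n = 4, exact two-sided permutation p = 0.2, adjusted p = 0.533). The exon 2 means were 0.597 ± 0.0628 against 0.577 ± 0.0842 (exact permutation p = 0.686, adjusted p = 0.928). These p-values were adjusted over 16 tests of such per-library measures, and 4 libraries against 4 allow no p below 0.0286. The interaction had an exact permutation p of 0.595. Between the control groups the ratio was 1.25-fold higher in the exon 2-3 line, with overlapping groups (exact permutation p = 0.0857, adjusted p = 0.457). As a share, Hba-x made up between 31.8% and 45.9% of the alpha-type total. Its level exceeded that of Hba-a1 in 8 of 8 libraries of the exon 2-3 line and in 5 of 8 of the exon 2 line.

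The reported ratio of Hba-a1 to Hba-a2 was nearly constant within a line. It was 1.224 ± 0.0152 in the exon 2-3 controls and 1.225 ± 0.00423 in the exon 2-3 cKO, and 1.34 ± 0.0270 and 1.35 ± 0.0508 in the exon 2 controls and cKO (SD, n = 4). The highest exon 2-3 control stood at 1.24 and the lowest exon 2 control at 1.31, so the control groups did not overlap (exact permutation p = 0.0286, the smallest that 4 against 4 can give, adjusted p = 0.229). Because the coding sequences of these 2 genes differ at 1 base, this ratio also depends on how reads were divided between them, which was not tested.

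Slc4a1 kept close to the globins. Per 1000 TPM of summed alpha-type globin, its level was 5.25 ± 0.379 TPM in the exon 2-3 controls and 5.06 ± 0.512 TPM in the exon 2-3 cKO (exact permutation p = 0.6, adjusted p = 0.928). The exon 2 line had 6.29 ± 0.452 TPM in the controls and 6.94 ± 0.665 TPM in the cKO (exact permutation p = 0.2, adjusted p = 0.533). The lowest and highest libraries overall stood at 4.33 and 7.65, a 1.77-fold range against the 8.59-fold range of Slc4a1 itself. The control groups did not overlap, at 4.77 to 5.62 in the exon 2-3 line and 5.63 to 6.59 in the exon 2 line (exact permutation p = 0.0286, adjusted p = 0.229). Adjusted over 16 tests, a comparison of 4 libraries against 4 could hardly pass the threshold even with groups fully apart, so the adjusted values of these ratios say little on whether they differ.

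**Figure D3:**
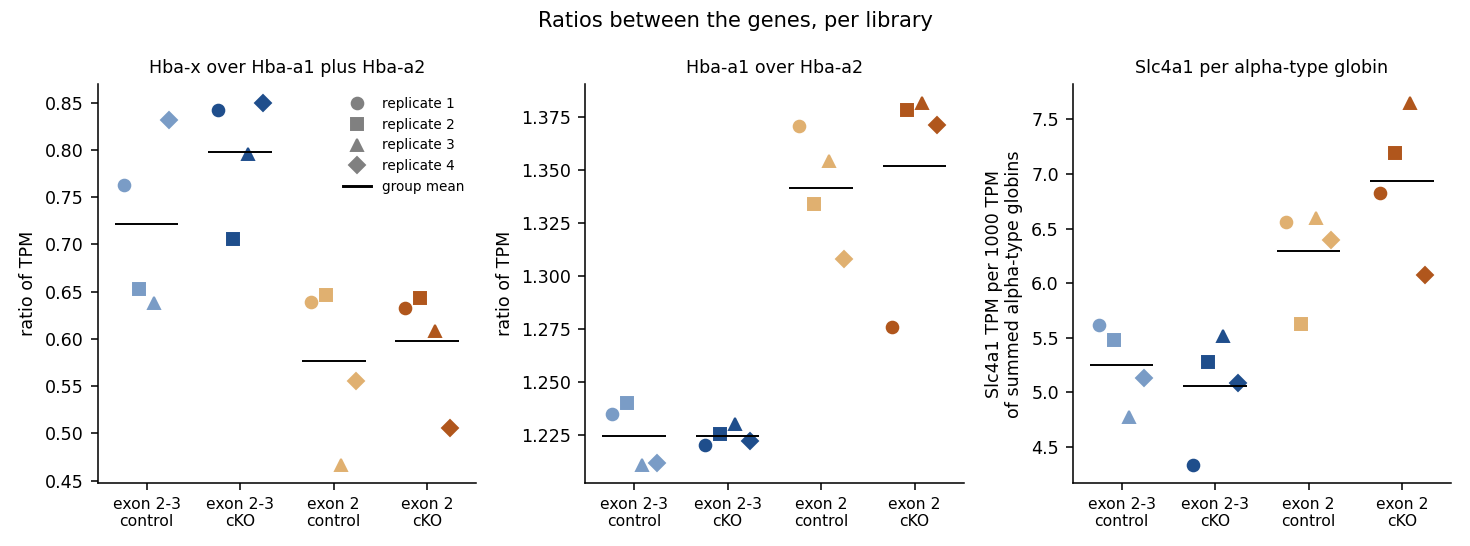
Ratios of TPM in each library: Hba-x over Hba-a1 plus Hba-a2 (left), Hba-a1 over Hba-a2 (middle) and Slc4a1 per 1000 TPM of summed alpha-type globins (right); marker shape gives the replicate and the line the group mean, and the axes do not start at 0. The cKO and control groups overlap in each line for all 3 ratios, while the controls of the 2 lines are apart in the middle and right panels.

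Within each line the genes followed one another from library to library. Across the 8 libraries of the exon 2-3 line, log2 Hba-x and log2 of Hba-a1 plus Hba-a2 had a Pearson r of 0.986 and a Spearman rho of 0.976 (exact permutation p = 4.96e-05 and 0.000397, adjusted p = 0.000149 and 0.00119 over 6 relations). For the exon 2 line r was 0.988 and rho 0.976, with the same p-values by exact permutation. Without the 2 libraries farthest from the median of the x axis, r was 0.982 and 0.970. The slope was 0.959 in the exon 2-3 line and 0.654 in the exon 2 line, so in the exon 2 line Hba-x varied less than the later genes. The ratio of Hba-x to the later genes in the exon 2 line had an r of -0.947 with the alpha-type total (exact permutation p = 0.00258, adjusted p = 0.00310), but a rho of -0.667 (exact permutation p = 0.0831, adjusted p = 0.0997). That relation shares values between its axes. Its r was -0.170 in the exon 2-3 line (exact permutation p = 0.687) and rho -0.167, and -0.708 without the 2 farthest libraries, which are replicates 3 and 4 of the cKO.

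For Slc4a1 and the alpha-type total, r was 0.993 and rho 0.952 in the exon 2-3 line (exact permutation p = 9.92e-05 and 0.00114, adjusted p = 0.000198 and 0.00228). For the exon 2 line r was 0.950 and rho 0.881 (exact permutation p = 0.000694 and 0.00724, adjusted p = 0.00104 and 0.0109). Without the 2 farthest libraries r was 0.992 and 0.826. The libraries left out were cKO replicates 3 and 4 in the exon 2-3 line, and control replicate 3 and cKO replicate 4, the highest of their line, in the exon 2 line.

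**Figure D4:**
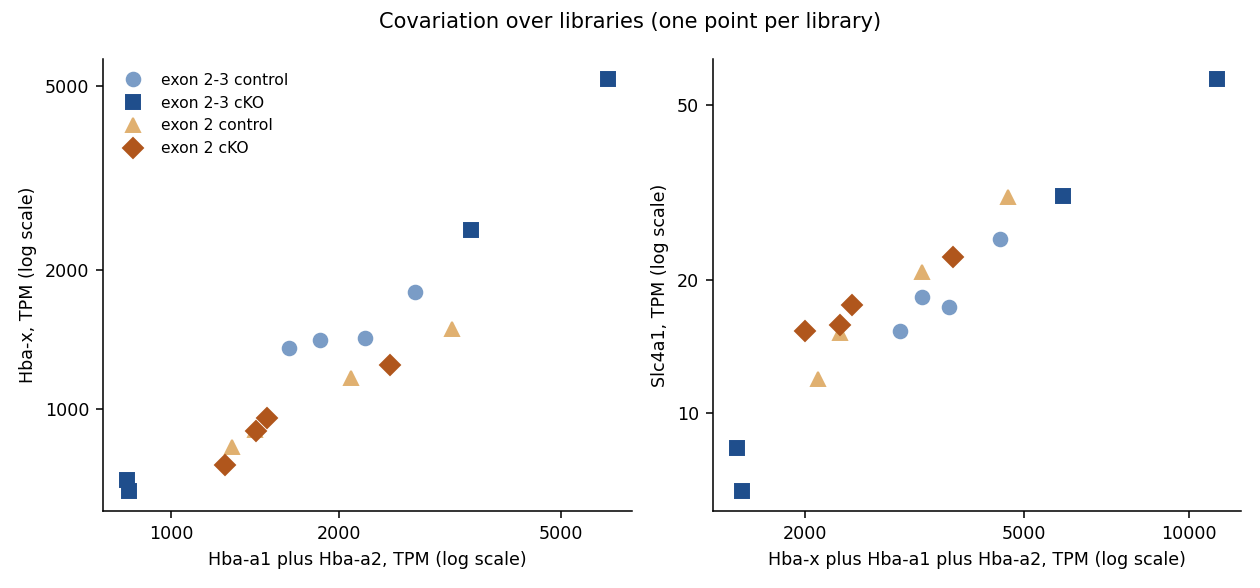
Hba-x against Hba-a1 plus Hba-a2 (left) and Slc4a1 against the summed alpha-type globins (right), in TPM on log axes, 1 point per library with the marker giving the group. The 4 exon 2-3 cKO libraries occupy both ends of each axis, 2 at the low end and 2 at the high end, and within each line the points rise together.

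The genes whose pattern over the 16 libraries was most like the alpha-type total were found by Pearson r of log2(TPM + 1) after subtraction of each group mean, a description across libraries that share batches. The median r over the 2620 genes was 0.05. Slc4a1 came first after the globins themselves, at 0.989. Among the other genes with the highest values were the manganese exporter gene Slc30a10 (0.956) and the theta-type globin gene Hbq1b of the same cluster (0.894). Slc30a10 averaged 1.01 TPM over all libraries but 0.907 TPM outside the exon 2-3 cKO, so it passed the filter only through that group, where replicate 4 stood at 3.14 TPM. Also among the highest were Rffl (0.881), the ubiquitin-conjugating enzyme gene Ube2n (0.855), Nudt4 (0.836), Fam117a (0.768) and Echdc1 (0.763). When the 4 exon 2-3 cKO libraries were left out, r was 0.958 for Slc4a1, 0.899 for Slc30a10 and 0.742 for Fam117a. It was 0.664 for Nudt4, 0.569 for Hbq1b, 0.150 for Echdc1, 0.075 for Rffl and -0.290 for Ube2n. The likeness of the last 3 thus rested on that cKO group.

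Other red cell genes were followed in a list of 17 on the chromosomes held, of which 11 passed the filter of 1 TPM. In the exon 2-3 line 1 of the 11 was called, as higher, beside 4.16% of all genes called higher, and the median log2 difference was 0.17 against 0.03 over all genes, with 8 above 0 and 3 below. The gene called was Foxo3, a transcription factor that acts in red cell maturation and in many other cell types. It rose from 10.8 ± 1.54 to 14.9 ± 1.20 TPM (SD, n = 4), a log2 difference of 0.44 (SE 0.10, limma adjusted p = 0.0355). That call was lost in 6 of 8 fits that left out a library, namely those without control replicate 1 or 2 or any single cKO replicate, with adjusted p up to 0.0984, and without the filter on low values (limma adjusted p = 0.0976). In the exon 2 line none of the 11 was called, beside 0.0763% of all genes, and the median was -0.04 against -0.01.

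Hbq1b averaged 1.31 TPM, with 4.49 TPM in exon 2-3 cKO replicate 4 as its highest value and 0.441 TPM as its lowest (log2 difference 0.18 in the exon 2-3 line, limma adjusted p = 0.793). Hbq1a, its paralog in the same cluster, averaged 0.269 TPM and was listed at 0 in 1 library, and Trim58, a ubiquitin ligase of late red cell maturation, averaged 0.256 TPM; neither passed the filter. Slc25a39, a mitochondrial carrier needed in red cells and present in many tissues, stayed between 127 and 175 TPM (log2 difference -0.19, limma adjusted p = 0.239 in the exon 2-3 line).

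Between the control groups, 5 of the 11 genes were lower in the exon 2-3 line, beside 38.1% of all genes called lower there. They were Bcl11a (log2 difference -0.62), Samd14 (-0.61), Foxo3 (-0.57), Steap3 (-0.41) and Cd24a (-0.22), each passing limma's adjusted threshold, with 0.0176 for Cd24a as the largest adjusted p. The median over all genes tested was itself -0.14, and with each library centred on its median Cd24a stood at -0.04 and did not pass (limma adjusted p = 0.570). Cd24a also missed the threshold without exon 2-3 control replicate 3 or exon 2 control replicate 2, with limma adjusted p up to 0.0605. None of these 5 followed the alpha-type total closely, with r from -0.373 for Bcl11a to 0.578 for Steap3.

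**Figure D5:**
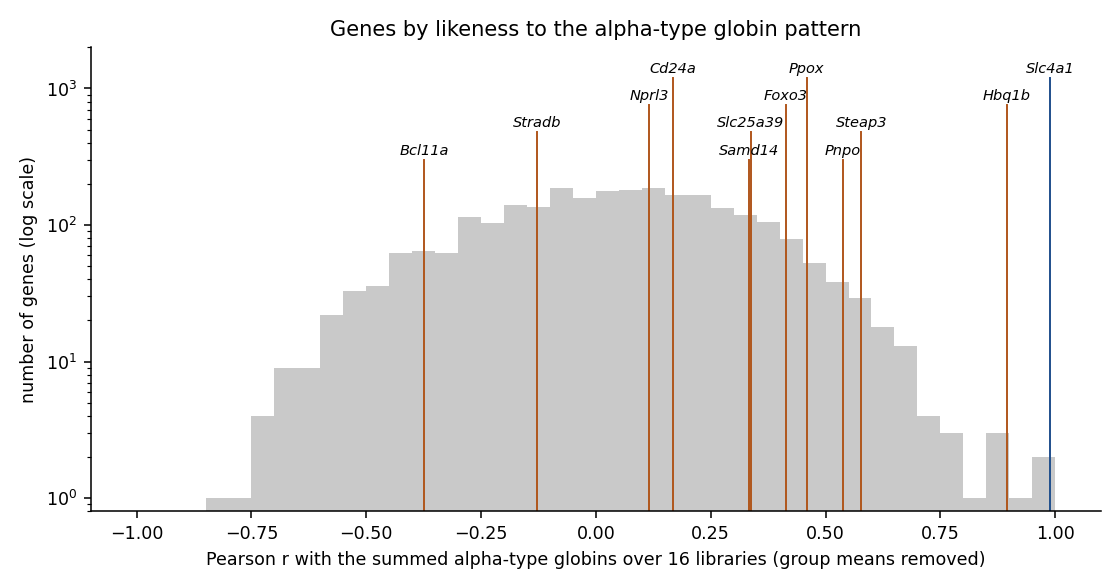
Distribution over genes (log count axis) of Pearson r with the summed alpha-type globins over 16 libraries after removal of group means; lines mark Slc4a1 and the 11 tested genes of the red cell list. Slc4a1 (0.989) and Hbq1b (0.894) stand at the right end, while the other genes of the list lie between -0.373 and 0.578.

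The neighbours by position varied to different degrees. Upstream of the cluster, Nprl3, whose introns are known to hold distal enhancers of the alpha globin genes, varied 1.48-fold between its lowest and highest library, Mpg 1.48-fold and Rhbdf1 1.85-fold. Downstream, Sh3pxd2b varied 1.94-fold, whereas Hbq1b inside the cluster varied 10.2-fold. Hbq1b did so at a much lower level, from 0.441 TPM to 4.49 TPM in exon 2-3 cKO replicate 4. The means of Nprl3, Mpg, Rhbdf1 and Sh3pxd2b lay between 15.9 and 25.6 TPM. Gm51948, also downstream, averaged 0.910 TPM and did not pass the filter, and it ranged 62.5-fold from 0.0388 to 2.42 TPM. Beside Slc4a1, Atxn7l3 varied 1.45-fold and Ubtf 1.61-fold, and the noncoding Bloodlinc averaged 0.0127 TPM. None of the tested neighbours was called between cKO and control, beside 6.72% of all genes in the exon 2-3 line and 0.0763% in the exon 2 line. Between the control groups, Sh3pxd2b was lower in the exon 2-3 line (log2 difference -0.49, limma adjusted p = 0.000182). So were Ubtf (-0.30, limma adjusted p = 0.00564) and Atxn7l3 (-0.23, limma adjusted p = 0.0284), beside 38.1% of all genes called lower. The other tested neighbours were not called there.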

How the data were processed

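The authors deposited 1 table of TPM values, and the columns were assigned to the 16 samples by names in the labels. The 5921 complete rows analysed here lie on chromosomes 1, 10 and 11, up to position 106501211 on 11, and hold 15.2% to 17.1% of each library's TPM. Per the submitters' processing notes, Trim Galore 0.6.7, HISAT2 2.2.1, StringTie 2.2.1, featureCounts and DESeq2 were used with GRCm38. Which program made the TPM values, and how reads shared by near-identical genes were divided, is not given in the sources used here. The labels give a range of paired-end read numbers for the series, but the depth of each library is unknown, so no counting intervals are given.

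log2(TPM + 1) was tested with limma 3.58.1 (R 4.3.3, intensity trend, two-sided) on the 2620 genes that averaged 1 TPM or more, with Benjamini-Hochberg adjustment over all of them and a threshold of 0.05. All 4 genes passed that filter. Ratios, and correlations within each line, were tested by exact permutation over libraries. Spearman rho was computed with SciPy 1.17.1. Fold changes understate those of low genes. Replicates of a group correlated at 0.982 to 0.992 in log2(TPM + 1), without subtraction of group means. The procedure was tested on simulated data. Alternatives were another pseudocount, other filters, scalings and models, the replicate number as a block, and leaving out each library. The genes and lists were chosen with earlier results of these data known. Named genes were the 4 genes, the red cell list (values for those called and for some preset genes), the 10 most similar patterns and the neighbours by position. Some genes are not reported here, and lists are counted without them. The promoter table gave windows for the 3 alpha-type genes. Same-numbered cKO and control libraries correlated at -0.0287 to 0.211 in the exon 2-3 line and 0.0639 to 0.200 in the exon 2 line, so the numbers were not taken as pairs.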

Additional observations from a re-analysis of the deposited data

Results flagged for a closer look

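In 2 of 32 groups of 4 libraries examined, 1 library stood apart by Dixon's test of the gap to the nearest library, at its 95% critical value, which chance meets in about 1 in 20 groups. Hba-x in the exon 2-3 controls was 1789 TPM in replicate 2, and the gap to the next library was 0.842 of the group's range. The ratio of Hba-a1 to Hba-a2 in the exon 2 cKO was 1.28 in replicate 1 against 1.37 to 1.38 in the other libraries of the group, a gap of 0.902 of the range. The exon 2-3 cKO libraries met the criterion for none of the 4 genes, since 2 of them were low and 2 high.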

How the results depend on the processing

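None of the 4 genes passed the limma threshold in any comparison under any setting or with any library left out, and the smallest adjusted p was 0.227. The values counted next are those of the 4 genes, their ratios and the alpha-type total. The calls of Foxo3 and Cd24a, lost under some settings as given above, are not among them. None of the values counted passed as reported. Ratio tests of 4 libraries against 4 could hardly pass, so their side of the threshold could hardly change. Of 188 such values under other settings, 182 kept their direction and side of the threshold and 6 changed sign. These were the interaction of Hba-a1 with array weights (-0.014), that of Slc4a1 with a pseudocount of 0.1 (-0.0036), quantile normalisation (-0.046), median centring (-0.028) and array weights (-0.15), and Hba-a1 between controls after quantile normalisation (-0.011). The cause was not tested.

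Leaving out 1 library in turn moved the log2 differences listed here across 0, except that of Hba-x in the exon 2 line, which stayed below 0. In the exon 2-3 line the ranges were -0.51 to 0.48 for Hba-x, -0.63 to 0.33 for Hba-a1, -0.63 to 0.33 for Hba-a2, -0.58 to 0.40 for Slc4a1 and -0.58 to 0.39 for the alpha-type total. In the exon 2 line they were -0.30 to -0.01 for Hba-x, -0.44 to 0.036 for Hba-a1, -0.44 to 0.021 for Hba-a2, -0.27 to 0.17 for Slc4a1 and -0.39 to 0.015 for the total. For the interaction they were -0.34 to 0.65, -0.40 to 0.55, -0.39 to 0.56, -0.51 to 0.46 and -0.37 to 0.60 in the same order. Between controls they were -0.089 to 0.35 for Hba-a1 and -0.19 to 0.25 for Slc4a1. On the log2 scale, Hba-a1 over Hba-a2 ran from -0.0051 to 0.0063 in the exon 2-3 line, -0.0018 to 0.038 in the exon 2 line and -0.038 to 0.0020 for the interaction. Slc4a1 per alpha-type total ran from -0.10 to 0.014 in the exon 2-3 line, and Hba-x over the later genes from -0.041 to 0.13 in the exon 2 line.

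Counts over all genes moved more. Rescaling without hemoglobin genes set the summed TPM of all other analysed rows equal in every library. It therefore also removed differences between libraries in the total of the chromosomes analysed, and did more than take out globin RNA. In the exon 2-3 line 176 genes were called, against 95 without a filter, 309 after quantile normalisation, 269 after rescaling without hemoglobin genes and 343 after median centring, and 70 to 190 with a library left out (100 or fewer without control replicate 1 or 2 or any cKO replicate). The share called higher was 61.9%, 50.5% after quantile normalisation and 41.4% after median centring, and between controls 27.5%, 39.7% and 57.7%. For the interaction (62 genes) the counts were 133, 127 and 136 with quantile normalisation, median centring and array weights, and 36 to 84 with a library left out (41 or fewer without exon 2-3 cKO replicate 3, exon 2 control replicate 4 or exon 2 cKO replicate 2 or 4). In the exon 2 line, 1 fit over all libraries called 4 genes instead of 2, and leaving out a library 2 to 4, with 4 when control replicate 3 was left out. Of the red cell list in the exon 2-3 line, 0 genes were called without a filter, 3 after quantile normalisation, 2 after rescaling, 3 after median centring, 2 in 1 fit over all libraries, and 0 to 1 with a library left out. With the 2 farthest libraries left out, r with the alpha-type total was -0.708 and -0.742 for the Hba-x ratio. The r of Ube2n was -0.290 without the exon 2-3 cKO group, an alternative chosen after seeing the data.

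With the replicate number as a block, the exon 2-3 line had 149 genes called and Hba-x at 0.07 (limma adjusted p = 0.958), and the block changed no call of the 4 genes. After subtraction of group means, 3 of 4 pairs of libraries in the exon 2 line correlated best with their own number. No depth was available to bound counting error, and the near-identity of Hba-a1 and Hba-a2 limits what can be said of each alone.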

Other observations

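Among the genes named for their likeness to the alpha-type total, Ube2n and Rffl had a split of their own in the exon 2-3 cKO. Ube2n stood at 5.63 and 5.99 TPM in replicates 1 and 3 and at 47.0 and 50.2 TPM in replicates 2 and 4, while the 12 libraries of the other groups lay between 46.0 and 65.7 TPM. Rffl stood at 0.484 and 0.537 TPM in replicates 1 and 3 and at 3.53 and 4.45 TPM in replicates 2 and 4, against 3.35 to 4.53 TPM elsewhere. The same 2 libraries had the lowest levels of Hba-x, Hba-a1, Hba-a2 and Slc4a1. Against the controls of their own line, Ube2n in replicates 2 and 4 lay within the control range of 46.0 to 57.8 TPM, while Rffl was within it in replicate 2 and above it in replicate 4 (controls 3.40 to 3.81 TPM). The 2 genes lie on chromosomes 10 and 11. These values were singled out after they were seen, and their cause was not tested.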
